A study of Mus musculus with 10 samples.

Results

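The interleukin-1 (IL-1) family and its receptors were followed here as 10 genes, taken by symbol from the 31053 genes of the count matrices. The ligands were Il1a, Il1b, Il18 and Il33, the receptor antagonist was Il1rn, the receptors were Il1r1, Il1r2 and Il1rap, and the intracellular signalling genes were Myd88 and Irak3. Each gene was read in cells without a UMI (unique molecular identifier, a tag that marks 1 captured RNA molecule) of Ptprc, which encodes the pan-leukocyte surface protein CD45, and in cells with at least 1.

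Cells came from the distal mouse lung and had been sorted for the epithelial surface protein EpCAM and for RFP or YFP before droplet-based 3′ single-cell RNA sequencing, which gave 10 libraries in 6 groups. All mice carried Sftpc-CreERT2, a tamoxifen-inducible Cre driven by a surfactant gene of alveolar type 2 (AT2) cells, and received 3 doses of 0.2 mg/gbw tamoxifen. Sftpc-CreERT2;R26R-Confetti mice, in which RFP+ and YFP+ cells are both wildtype, gave 1 library of each colour, with no time point in the labels (2 weeks in the study's methods). Sftpc-CreERT2;Red2Kras mice, in which RFP marks the mutant cells and YFP+ cells from those lungs are wildtype, gave 2 libraries of each colour at 4 days and 2 of each colour at 2 weeks after induction. Lungs were pooled within each library, the YFP+ cells of Red2Kras lungs had mutant neighbours, and no age was given in the labels. Every comparison with Confetti therefore also compared mouse lines, the sex make-up of the pools (given below) and, for the 4 days libraries, times.

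IL-1 signals are among the earliest messengers of tissue damage. IL-1α, made from Il1a, and IL-1β, made from Il1b, bind the receptor encoded by Il1r1, which pairs with the accessory chain encoded by Il1rap and recruits the adaptor MyD88 to activate NF-κB. The pathway has brakes of its own: Il1rn encodes an antagonist that occupies the receptor without signalling, Il1r2 encodes a decoy receptor without a signalling domain, and Irak3 encodes a kinase-like protein that restrains signalling below MyD88. IL-18 and IL-33 belong to the same family but use receptors of their own, and IL-33 is a nuclear alarmin that barrier epithelia store and release on injury. In the lung, IL-1β from macrophages is known to act on AT2 cells carrying the receptor during repair.

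The members lie on 6 chromosomes of the mouse genome (GRCm38, GENCODE M21), and all 10 are annotated as protein-coding. Il1a (ENSMUSG00000027399, chr2:129299610-129309972, minus strand) and Il1b (ENSMUSG00000027398, chr2:129364570-129371139, minus strand) are neighbours, and Il1rn (ENSMUSG00000026981, chr2:24336853-24351494, plus strand) lies on the same chromosome. Il1r2 (ENSMUSG00000026073, chr1:40074079-40125231) and Il1r1 (ENSMUSG00000026072, chr1:40225080-40317257) are likewise close to each other. The other members are Il18 (ENSMUSG00000039217, chr9:50554827-50581840), Myd88 (ENSMUSG00000032508, chr9:119335934-119341411), Il33 (ENSMUSG00000024810, chr19:29925114-29960718), Il1rap (ENSMUSG00000022514, chr16:26581704-26730117) and Irak3 (ENSMUSG00000020227, chr10:120141648-120202130). RefSeq listed 15 promoters for the 10 members, each taken as 250 bases before to 50 bases after a transcription start. The promoters of Il1a and Il1b, which encode ligands of the receptor Il1r1, and of Il1rn, which encodes its antagonist, are shown, 5′ to 3′ on the strand of the gene. Capitals mark matches to TGANTCA, the letters of an AP-1 site, or to TATAAA, the letters of a TATA box, which were searched on both strands along with the NF-κB consensus.

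Il1a, chr2:129309923-129310222, minus strand: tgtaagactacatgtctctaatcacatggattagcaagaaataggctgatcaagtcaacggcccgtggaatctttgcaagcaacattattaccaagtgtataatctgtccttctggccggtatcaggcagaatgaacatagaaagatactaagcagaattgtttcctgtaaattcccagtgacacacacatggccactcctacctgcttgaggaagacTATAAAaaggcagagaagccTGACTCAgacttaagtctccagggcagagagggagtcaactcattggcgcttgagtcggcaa

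Il1b, chr2:129371090-129371389, minus strand: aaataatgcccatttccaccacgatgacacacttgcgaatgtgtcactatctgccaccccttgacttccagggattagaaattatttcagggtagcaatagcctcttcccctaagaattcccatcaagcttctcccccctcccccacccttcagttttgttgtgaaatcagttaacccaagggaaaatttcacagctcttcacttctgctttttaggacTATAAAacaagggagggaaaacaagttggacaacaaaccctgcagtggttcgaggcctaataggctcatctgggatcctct

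Il1rn, chr2:24336610-24336909, plus strand: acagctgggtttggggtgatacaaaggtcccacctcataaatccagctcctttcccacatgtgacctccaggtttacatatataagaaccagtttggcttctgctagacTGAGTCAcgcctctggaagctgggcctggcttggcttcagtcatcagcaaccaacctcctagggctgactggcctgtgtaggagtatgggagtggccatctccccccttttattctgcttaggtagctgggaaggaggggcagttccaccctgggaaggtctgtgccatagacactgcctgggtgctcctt

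Among the 15 member promoters, the AP-1 letters occurred in the Il1a promoter, with their first base at −12 from the start, and in the Il1rn promoter shown, with their first base at −141. The TATA box letters occurred in 7 of the 15, among them the Il1a promoter at −32 and the Il1b promoter, which held no AP-1 letters, at −31. The NF-κB consensus matched 1 of the 15, a second promoter of Il1r1. Of all 32851 RefSeq promoters of this length, 7.81% held the AP-1 letters, 13.6% the TATA box letters and 4.51% the NF-κB consensus. Such matches are letters in a window and no measure of binding.

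Of 42012 deposited cell barcodes with 279015362 UMIs, 32698 passed the study's quality limits, and 2099 of these (6.419%) held at least 1 Ptprc UMI. The remaining 30599 Ptprc 0 cells carried the AT2 markers fixed for this check (Sftpc, Sftpb, Sftpa1, Lamp3, Abca3 and Etv5) at a summed 85273 to 187872 CPM per library, against 1513 to 36732 in the Ptprc-positive cells. CPM are the UMIs of a gene summed over the cells of a class and library, scaled to 1000000 UMIs of that class. Ptprc-positive cells made up 0.964% to 34.8% of a library despite the EpCAM gate, and 17.8% to 53.0% of them also held an Epcam UMI. No doublet caller was run, and any pair of libraries shared at most 17 barcodes, 0.350% of the smaller library. Some Ptprc 0 cells still carried immune RNA. The summed level of the 5 other pan-immune markers (Laptm5, Coro1a, Tyrobp, Fcer1g and Cd52) was 632.5 CPM in RFP replicate 2 at 4 days and 815.2 in YFP replicate 2 at 2 weeks, against 10.5 to 104.9 in the other 8 libraries. Values are therefore also given for 28736 strict Ptprc 0 cells, which held no UMI of 10 immune, endothelial, mesenchymal or ciliated markers. Both Confetti libraries held no UMI of the Y-linked gene Ddx3y, whereas every Red2Kras library held some, from 178 to 2417. The 4 libraries of replicate number 2 held 2 to 10 UMIs of Xist against 2707 to 16159 in the other 6. The sexes of the pooled mice thus differed between libraries, and every comparison with Confetti also compared pools of different sex make-up. Median UMIs per Ptprc 0 cell ran from 3251 to 15685, with the highest values in the RFP libraries at 2 weeks.

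Most UMIs of the ligands Il1b and Il18, the antagonist Il1rn and the decoy receptor Il1r2 were in Ptprc-positive cells in at least 9 of 10 libraries, and those of the ligand Il1a in 8. Those of the ligand Il33, the receptor Il1r1 and the adaptor Myd88 were mainly in Ptprc 0 cells in all 10. The median share of a member's UMIs in Ptprc-positive cells was 86.0% for Il1b (47.3% to 94.7% over libraries), 82.4% for Il1a (36.7% to 91.1%), 79.2% for Il1rn (48.5% to 96.4%), 78.8% for Il1r2 (59.4% to 98.8%) and 75.6% for Il18 (48.4% to 97.9%), ranges that overlap throughout. The inhibitor Irak3, at a median of 58.0% (0 to 83.8%), and the co-receptor Il1rap, at 26.6% (2.99% to 78.0%), were divided, with more than 50% in 6 and 2 libraries. The median was 3.69% for Myd88, 1.04% for Il1r1 and 0.568% for Il33. These shares move with the share of Ptprc-positive cells in a library. In the comparison of both cell classes within each library (edgeR quasi-likelihood test, 10 libraries, library as a block), 59.5% of 12010 genes tested were called at an adjusted p below 0.05, 28.2% higher and 31.3% lower in Ptprc-positive cells. All 10 members passed the filter on low counts, 8 were called higher and 2 lower, and their median log2 difference was 5.02 against −0.06 over all genes tested. Members low in Ptprc 0 cells, such as Il1a and Il1r2 (means of 0.976 and 0.868 CPM), could pass that filter through Ptprc-positive cells. Calls of such members are therefore a description. Levels in CPM count RNA 3′ ends and were not divided by gene length, so they were compared between cells rather than between genes. Summed levels cannot tell fewer expressing cells from less RNA per cell.

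**Figure D1:**
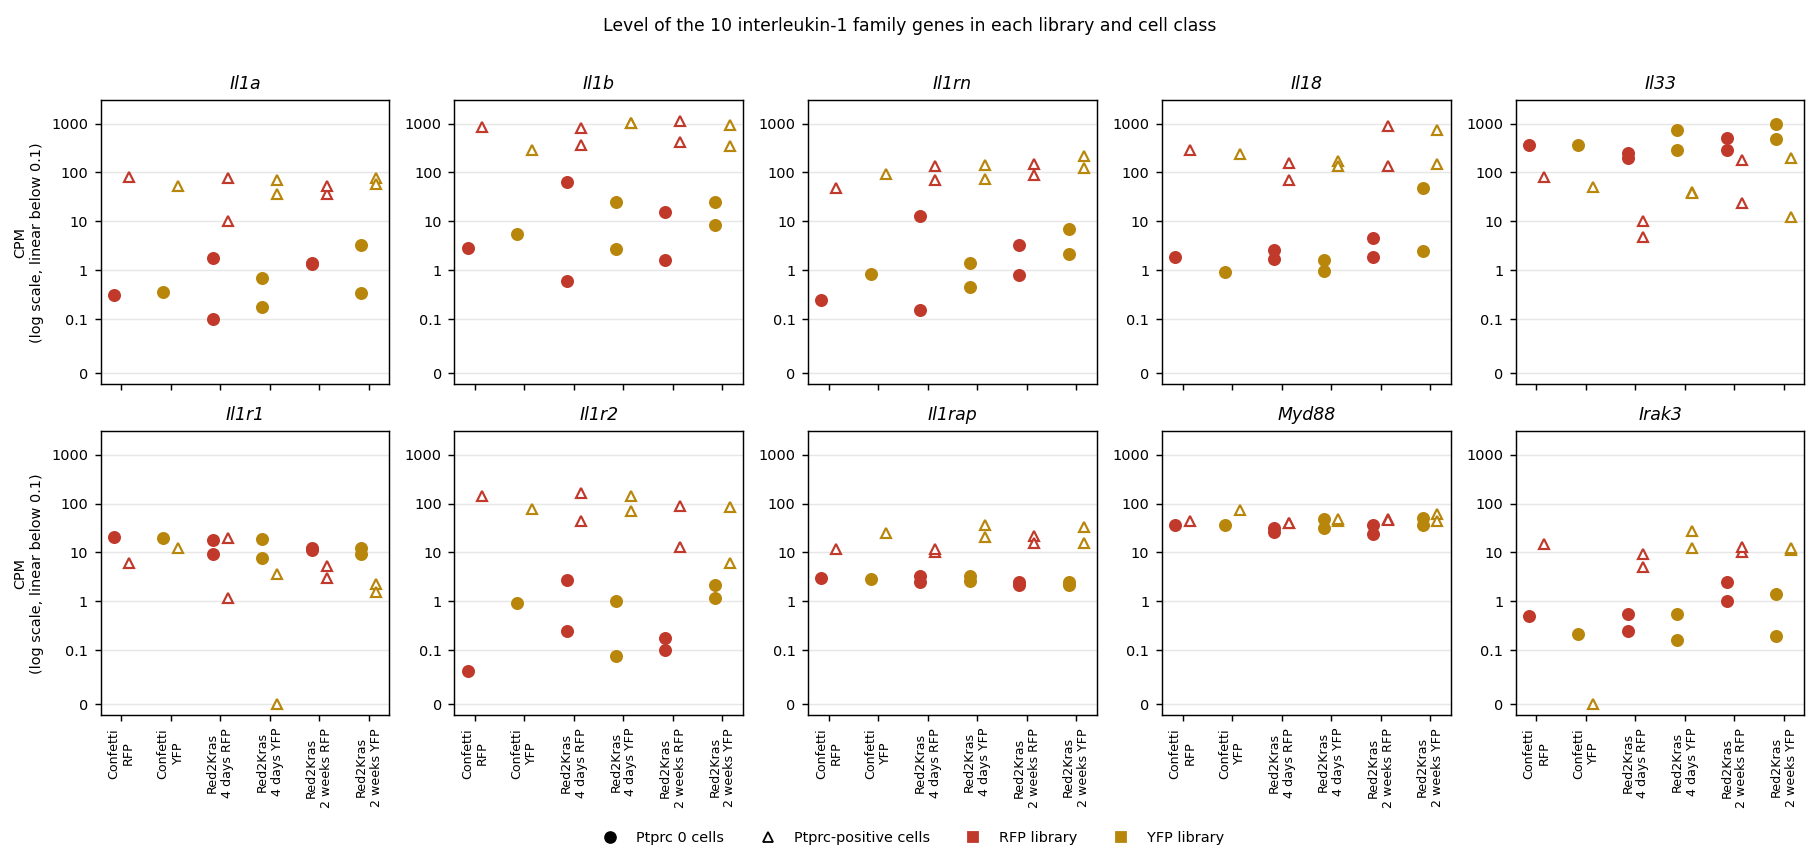
Level of each of the 10 members (CPM, vertical axis, logarithmic above 0.1 and linear below) in the 6 groups (horizontal axis), 1 symbol per library, with filled circles for Ptprc 0 cells and open triangles for Ptprc-positive cells. Il1a, Il1b, Il1rn, Il18 and Il1r2 were higher in the Ptprc-positive cells of all 10 libraries, Il33 was lower in all 10, and the Myd88 symbols of both classes lie close together.

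Among the ligands, Il1b was at 718.5 ± 329.7 CPM in Ptprc-positive cells (mean ± SD, n = 10 libraries). Its level was 853.7 and 285.9 in the Confetti RFP and YFP libraries, 362.5 and 799.1 in RFP and 1024.1 and 1007.5 in YFP at 4 days, and 1149.5 and 417.6 in RFP and 938.5 and 346.7 in YFP at 2 weeks. The groups overlapped, and replicate 2 was the lower library of both colours at 2 weeks. In Ptprc 0 cells Il1b was at 0.606 to 64.2, with the highest values in RFP replicate 2 at 4 days (64.2), YFP replicate 2 at 2 weeks (24.7) and YFP replicate 2 at 4 days (24.3), libraries that include both with raised pan-immune markers. Only 4.07% of its Ptprc 0 UMIs lay in strict cells, where all 10 libraries were at 0.23 to 1.07. The difference between classes was 6.36 on the log2 scale (SE 0.688, adjusted p = 2.81e-06, edgeR).

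Il1a was at 55.5 ± 22.8 CPM in Ptprc-positive cells (n = 10 libraries), with a log2 difference of 5.96 from Ptprc 0 cells (SE 0.389, adjusted p = 3.53e-08, edgeR). Unlike Il1b, it kept 56.6% of its few Ptprc 0 UMIs in strict cells, and nearly all of those came from the mutant libraries at 2 weeks. RFP replicates 1 and 2 at 2 weeks held 90 and 34 Il1a UMIs in strict cells, whereas each of the other 8 libraries held 0 to 2.

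Il18, whose product is released after cleavage by caspase-1, was at 297.2 ± 280.2 CPM in Ptprc-positive cells (n = 10 libraries). It stood at 891.9 in RFP replicate 2 and 732.7 in YFP replicate 2 at 2 weeks, and at 71.0 to 287.5 in the other 8 libraries, without overlap. The log2 difference between classes was 6.32 (SE 0.399, adjusted p = 2.72e-08, edgeR). In Ptprc 0 cells it was at 47.9 in YFP replicate 2 at 2 weeks and at 0.928 to 4.47 elsewhere, and in the strict cells of that library at 3.61. The summed alveolar macrophage markers (Marco, Chil3, Ear2, Plet1, Atp6v0d2, Mrc1, Siglecf and Krt79) in Ptprc 0 cells were likewise highest there, at 984.9 against 11.2 to 120.1, and their part in the Il18 value of those Ptprc 0 cells was not tested beyond the value in strict cells.

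Il1rn, the antagonist, was at 113.9 ± 50.9 CPM in Ptprc-positive cells (n = 10 libraries), with a log2 difference of 6.00 (SE 0.436, adjusted p = 8.44e-08, edgeR). In Ptprc 0 cells it was at 0.248 and 0.857 in Confetti, 0.151 and 13.1 in RFP and 0.448 and 1.37 in YFP at 4 days, and 3.28 and 0.793 in RFP and 2.11 and 6.89 in YFP at 2 weeks. Strict cells held 57.7% of these UMIs, but not evenly. RFP replicate 2 at 4 days kept 9.54 and RFP replicate 1 at 2 weeks 3.12 CPM in strict cells, from 77 and 203 UMIs, while YFP replicate 2 at 2 weeks dropped from 6.89 to 0.144 with 1 UMI left.

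Il33 ran the opposite way. It was at 445.9 ± 244.5 CPM in Ptprc 0 cells (n = 10 libraries), and 95.4% of its Ptprc 0 UMIs lay in strict cells. After thinning each cell to 2000 UMIs, 27.8% to 69.9% of Ptprc 0 cells and 0.995% to 16.0% of Ptprc-positive cells held an Il33 UMI, where 45.9% to 89.9% and 2.30% to 27.3% did before thinning. The log2 difference was −3.37 (SE 0.381, adjusted p = 4.18e-06, edgeR). The Il33 level in Ptprc-positive cells was a median 0.108 of that in Ptprc 0 cells (range 0.0188 to 0.364), and the same ratio was 0.105 for Sftpc (0.0130 to 0.374), a surfactant gene of AT2 cells that leukocytes are not known to make. The Il33 ratio was above the Sftpc ratio in 6 of 10 libraries, so its level in Ptprc-positive cells was not read as expression there.

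The receptor Il1r1 was also mainly epithelial, at 14 ± 5.02 CPM in Ptprc 0 cells (n = 10 libraries). Its log2 difference was −1.87 (SE 0.289, adjusted p = 7.12e-05, edgeR). It was detected sparsely: 1.49% to 3.94% of Ptprc 0 cells and 0% to 1.80% of Ptprc-positive cells held a UMI after thinning, against 4.50% to 15.4% and 0% to 10.8% without thinning. In Ptprc-positive cells its level was a median 0.221 of that in Ptprc 0 cells, above the Sftpc ratio in 9 of 10 libraries. That level rested on 57 UMIs over all libraries, 0 to 28 in each, and with so few it was not read as expression there. Strict cells kept 92.5% of the Ptprc 0 UMIs.

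The decoy receptor Il1r2 was nearly absent from epithelial cells. Ptprc-positive cells held 83.5 ± 53.9 CPM (n = 10 libraries), whereas strict Ptprc 0 cells held 0 to 0.282, and the log2 difference between classes was 6.63 (SE 0.769, adjusted p = 5.46e-06, edgeR). The accessory chain Il1rap was measured in both, at 20.2 ± 9.24 in Ptprc-positive and 2.69 ± 0.406 in Ptprc 0 cells, with a log2 difference of 2.85 (SE 0.241, adjusted p = 3.06e-07, edgeR), and strict cells kept 87.8% of its Ptprc 0 UMIs. The Ptprc 0 level of Il1rap stayed between 2.15 and 3.31 in all 10 libraries, the narrowest relative range of the members.

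The adaptor Myd88 was at 49.0 ± 10.6 CPM in Ptprc-positive and 35.4 ± 8.55 in Ptprc 0 cells (n = 10 libraries each). Its log2 difference of 0.42 (SE 0.123, adjusted p = 0.00887, edgeR) was the smallest of the members and was no longer called with DESeq2, without the filter on low counts, or in Ptprc-positive cells without an Epcam UMI. The inhibitor Irak3 was at 11.6 ± 7.11 in Ptprc-positive cells and 0.158 to 2.53 in Ptprc 0 cells, with a log2 difference of 4.08 (SE 0.433, adjusted p = 2.34e-06, edgeR). Its strict-cell level was 0.982 and 2.40 in the 2 RFP libraries at 2 weeks and 0.0526 to 0.289 in the other 8, without overlap.

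**Figure D2:**
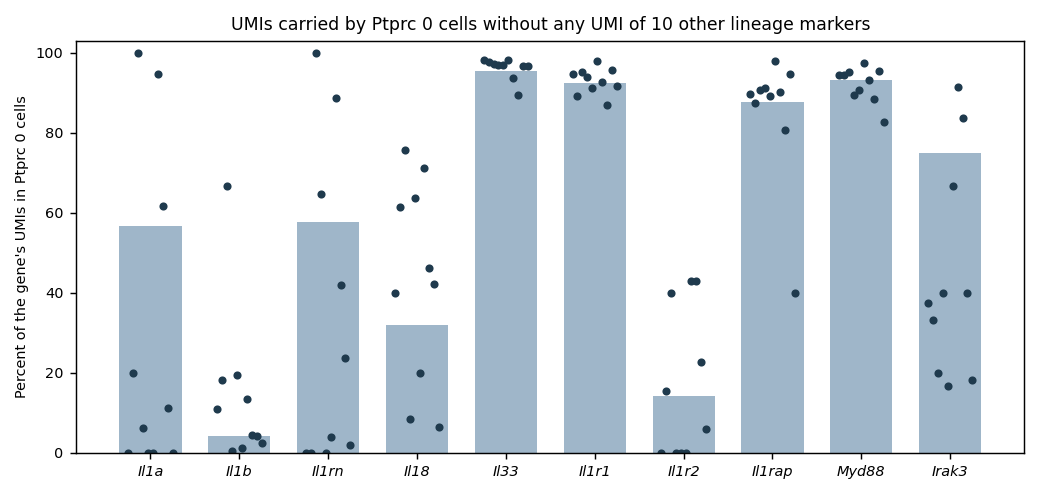
Percent of each member's Ptprc 0 UMIs that lay in strict cells, those with no UMI of 10 immune, endothelial, mesenchymal or ciliated markers (vertical axis, percent), for the 10 members (horizontal axis). Bars pool the 10 libraries and dots are single libraries. Il33, Myd88, Il1r1 and Il1rap stand at 87.8% or above, Irak3 at 74.9%, Il1a and Il1rn between 56.6% and 57.7%, Il18 at 32.0%, Il1r2 at 14.3% and Il1b at 4.07%.

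The Ptprc-positive cells were of several kinds, and the ligands were divided among them. Each cell was given to the leading marker list among 7 immune lists where at least 2 markers were detected, which left 204 of 2099 cells without a list or tied. The alveolar macrophage list led in 1379 cells, the C1q macrophage list in 229, the monocyte and dendritic cell list in 147, the T and NK cell list in 79, the neutrophil list in 47, the B cell list in 14 and the mast cell list in 0. These are marker ranges rather than clusters, and the values that follow are a description, with shares of UMIs pooled over libraries and levels as medians over the libraries with at least 10 cells of a list. Il18 was concentrated in cells of the alveolar macrophage list, which held 98.2% of its Ptprc-positive UMIs. Its level there was a median 443.0 CPM (218.3 to 1058.8, 10 libraries), against 23.2 (5.59 to 165.0, 6 libraries) in the C1q list. The alveolar macrophage list held 72.2% of all Ptprc-positive UMIs, and of the members' UMIs it held 89.3% of Il1rap, 84.0% of Il1a, 80.4% of Il1rn, 77.7% of Irak3 and 75.9% of Myd88. Of the 13837185 UMIs of this list, 7740738 came from RFP replicate 2 and 4097627 from YFP replicate 2 at 2 weeks. The pooled shares therefore mainly describe those libraries.

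Il1b and Il1r2 were spread differently. Il1b was at 3343.2 and 4049.9 CPM in the 2 libraries with at least 10 neutrophil-list cells, at a median 1918.8 (1477.5 to 2939.1, 6 libraries) in C1q-list cells and 1046.5 (463.4 to 2311.8, 6 libraries) in monocyte and dendritic cell-list cells, and at 189.5 (24.2 to 672.5, 10 libraries) in alveolar macrophage-list cells, which held 29.4% of its UMIs. Of the pooled cells of these lists, in the same order, 93.6%, 75.5%, 53.7% and 39.8% held an Il1b UMI, against 1.27% of T and NK cell-list cells. Il1r2 was at 352.8 and 709.9 in neutrophil-list cells, the highest of these lists for both genes, and at a median 99.8 (40.3 to 172.0) in C1q-list and 0.732 (0 to 24.3) in alveolar macrophage-list cells. Monocyte and dendritic cell-list cells also held Il1r2, at levels that overlapped those of the C1q list. The lowest was 4 of 143224 UMIs in RFP replicate 2 at 4 days and the highest 32 of 188718 in RFP replicate 1 at 2 weeks, among libraries with at least 10 such cells. Il1rn was at medians of 161.0 and 125.5 in C1q- and alveolar macrophage-list cells.

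The make-up of the Ptprc-positive cells differed between libraries. Alveolar macrophage-list cells were 27.6% to 64.3% of them in 8 libraries, 75.7% in RFP replicate 2 and 87.2% in YFP replicate 2 at 2 weeks, the same libraries in which Il18 was highest and Il1r2 lowest. Within alveolar macrophage-list cells alone, Il18 was still highest in those libraries, at 1058.8 and 805.8 CPM against 218.3 to 527.8 in the others. Across the 8 Red2Kras libraries, the Ptprc-positive level of Il18 at 2 weeks differed from that at 4 days by 1.85 on the log2 scale (SE 0.651, adjusted p = 0.932, edgeR with colour as a covariate), that of Il1r2 by −1.24, that of Il1b by −0.27 and that of Il33 by 2.15. None of the 9 members tested was called, with 0.0144% of 6953 genes called. Without the filter on low counts, which called 1.59% of 17387 genes, Il18 (2.05, adjusted p = 2.33e-06) was called higher and Il1r2 (−1.15, adjusted p = 0.0339) lower at 2 weeks. Il33, which was not read as expression in these cells, was then also called (2.22, adjusted p = 7.55e-07). Il1r1 did not pass the filter on low counts there.

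**Figure D3:**
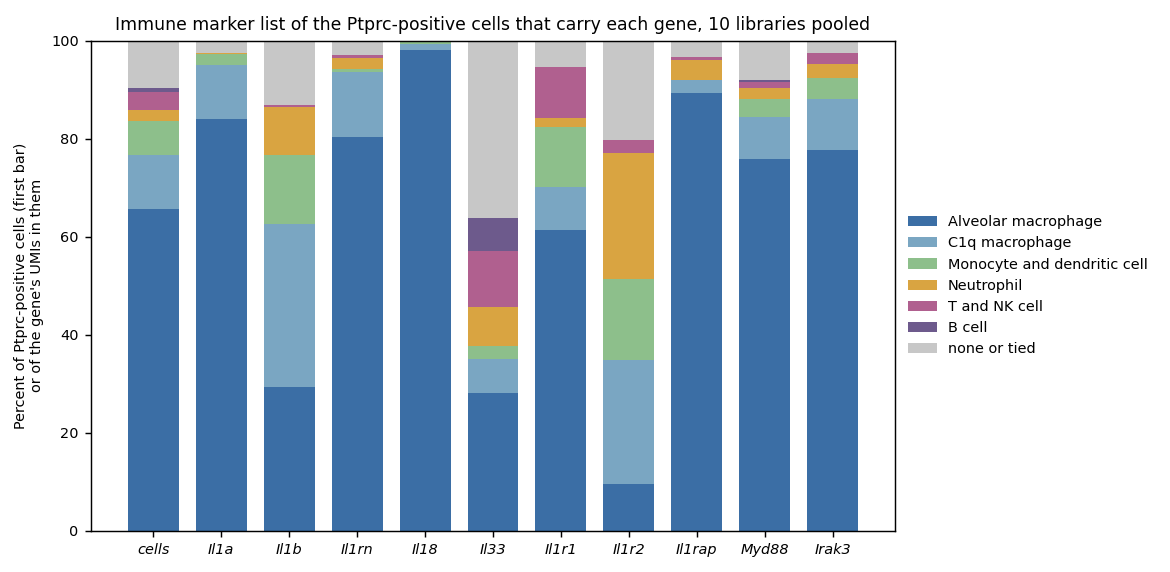
Percent (vertical axis) of Ptprc-positive cells (first bar) and of the Ptprc-positive UMIs of each member (the other bars) that fell to cells led by each immune marker list (colours), pooled over 10 libraries. Alveolar macrophage-list cells hold 98.2% of Il18 UMIs and 29.4% of Il1b UMIs, while the C1q, monocyte and dendritic cell, and neutrophil lists hold most of the rest of Il1b and Il1r2.

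Whether mutant and wildtype cells differed in the members was asked in the Ptprc 0 cells of the 8 Red2Kras libraries. With edgeR and the filter on low counts, no member was called in Ptprc 0 cells in these comparisons. Without that filter Il18 was called lower in RFP at 2 weeks, with 319 of 21599 genes called. Il33 differed in the same direction in every pair of colours. Its level in Ptprc 0 cells was 357.0 and 365.3 CPM in the Confetti RFP and YFP libraries, 201.5 and 252.3 in RFP and 292.6 and 736.5 in YFP at 4 days, and 505.2 and 290.3 in RFP and 984.4 and 474.0 in YFP at 2 weeks. YFP was above RFP in 4 of 4 pairs of libraries of the same time and number, by 1.45, 2.92, 1.95 and 1.63 times, while the Confetti colours were nearly equal. The 2 groups of 4 overlapped, since RFP replicate 1 at 2 weeks lay above 2 of the YFP libraries. Over both times Il33 was at 312.3 ± 133.6 in RFP and 621.9 ± 302.7 in YFP (n = 4 libraries each), a log2 difference of −1.17 (SE 0.377, unadjusted p = 0.0139, adjusted p = 0.214, edgeR with time as a covariate). Of 13078 genes tested 0% were called with edgeR, with 2149 at an unadjusted p below 0.05, and DESeq2 called 703 (5.38%), Il33 among them (log2 difference −1.14, adjusted p = 0.0384).

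Within times, the Il33 difference was −1.31 on the log2 scale at 4 days (SE 0.571, adjusted p = 0.999, edgeR) and −0.98 at 2 weeks (SE 0.566, adjusted p = 0.478, edgeR). The strict cells showed the same order, at 204.1 and 275.6 in RFP and 313.8 and 751.3 in YFP at 4 days, and 508.1 and 293.8 in RFP and 998.9 and 527.2 in YFP at 2 weeks. Myd88 had the same order in 4 of 4 pairs, at 29.2 ± 5.72 in RFP and 41.4 ± 9.33 in YFP (n = 4 libraries each), with a log2 difference of −0.64 (SE 0.231, adjusted p = 0.241, edgeR). Il1r1 showed no such order, at 12.7 ± 3.92 in RFP and 12.1 ± 5.07 in YFP. At 4 days and at 2 weeks, edgeR called 0% of 14856 genes between colours, with 511 and 1880 genes at an unadjusted p below 0.05. DESeq2 called 42 and 324, with Il18 lower in RFP among the 324 at 2 weeks.

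The decoy receptor Il1r2 at 2 weeks was at 0.10 and 0.179 CPM in RFP and 1.19 and 2.13 in YFP, without overlap, a log2 difference of −3.68 (SE 1.42, unadjusted p = 0.0341, adjusted p = 0.373, edgeR). YFP was the higher colour by 11.9 times in both pairs at 2 weeks but the lower in both pairs at 4 days, and strict cells of the 4 libraries at 2 weeks held 3 and 3 Il1r2 UMIs in RFP and 7 and 1 in YFP. The differences in Il1rn and Il18 rested on single libraries. Il1rn at 4 days differed by 2.66 on the log2 scale (SE 1.66, adjusted p = 0.999, edgeR), and without RFP replicate 2 by −2.69. Il18 at 2 weeks differed by −3.19 (SE 1.21, adjusted p = 0.373, edgeR), and without YFP replicate 2 by 0.33. Of the members not yet given, YFP was higher in 2 of 4 pairs for Il1a and Il1rap, 3 of 4 for Il1b and 1 of 4 for Irak3. The difference between colours itself did not pass the threshold between times for any member or gene (0% of 14856 called, 269 at an unadjusted p below 0.05, 0 with DESeq2).

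Against the Confetti libraries, the receptor Il1r1 was lower in CPM in all 8 Red2Kras libraries without passing the test. Ptprc 0 cells held 20.7 and 20.1 CPM in Confetti, 18.3 and 9.25 in RFP and 19.1 and 7.66 in YFP at 4 days, and 11 and 12.1 in RFP and 12.4 and 9.15 in YFP at 2 weeks. The 4 libraries at 2 weeks, at 11.2 ± 1.47, did not overlap with Confetti, whereas replicate 1 at 4 days lay just below Confetti in both colours. The log2 difference was −0.71 in RFP (SE 0.430, adjusted p = 0.328, edgeR) and −0.69 in YFP at 2 weeks. Counts per cell ran the other way in RFP at 2 weeks, with 771 and 473 Il1r1 UMIs in 4096 and 2829 cells. Confetti RFP and YFP held 334 and 281 in 3914 and 4121 cells. Median UMIs per cell were 15685 and 13199 in those RFP libraries and 4000.5 and 3251 in Confetti, and the part of depth was not tested. Summed Primed AT2 markers (Lcn2, Lrg1 and Orm1) divided the libraries the same way, at 2511 to 2891 in Confetti and replicate 1 at 4 days and 5044 to 8904 in the other 6, and their part in the Il1r1 values was not tested.

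In mutant cells at 2 weeks, the Ptprc 0 levels of Il1a and Irak3 were above both Confetti libraries in both replicates, whereas Il1rn was above both in replicate 1 only. The log2 differences were 2.14 for Il1a (adjusted p = 0.385), 2.23 for Il1rn and 2.52 for Irak3 (SE 1.16, adjusted p = 0.225, edgeR), none of them called, with 0.0202% of 14856 genes called, 3681 at an unadjusted p below 0.05, and 1795 called by DESeq2. In strict cells, RFP replicates 1 and 2 at 2 weeks held 90 and 34 Il1a UMIs, 203 and 13 Il1rn UMIs and 64 and 83 Irak3 UMIs, against 1, 0 and 4 over both Confetti libraries. Replicate 1 thus held nearly all of the Il1rn UMIs. A fit of strict cells, where 5.55% of 13820 genes were called, put Il1a past the threshold (log2 difference 5.79, SE 1.21, adjusted p = 0.0467, edgeR) and neither Irak3 (adjusted p = 0.0627) nor Il1rn (adjusted p = 0.114). Il1a passed the filter on low counts through RFP at 2 weeks alone, so that its values are a description. Median depth per cell was higher in these RFP libraries than in Confetti.

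With edgeR and the filter on low counts, the remaining comparisons with Confetti and between times called no member. DESeq2 called Il18 higher in YFP at 2 weeks against Confetti (49 of 14856 genes called). Without that filter edgeR called Il18 there and in YFP at 2 weeks against 4 days (118 and 29 of 21599 genes called). In YFP at 2 weeks, where 0.00673% of 14856 genes were called, Il18 was 4.56 above Confetti on the log2 scale (SE 1.33, adjusted p = 0.790, edgeR) through replicate 2, and Il33 was 1.22 above (SE 0.569, adjusted p = 0.790). In RFP at 4 days Il1rn was 3.91 above Confetti (SE 1.80, adjusted p = 0.794, edgeR), and −1.44 without replicate 2, while Il33 was at −0.55. For RFP and YFP at 4 days against Confetti and for 2 weeks against 4 days in RFP and YFP, edgeR called 0% of 14856 genes in each, with 871, 187, 1295 and 185 genes at an unadjusted p below 0.05, and DESeq2 called 126, 9, 96 and 4. Comparisons with Confetti share the same 2 control libraries, and a colour is represented there by 1 library.

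Cells with Cldn4, a tight junction gene and 1 of the markers listed here for damage-associated transient progenitors (DATP), were compared with cells without a Cldn4 UMI inside each of the 4 RFP libraries. Il33 and Myd88 were called lower in the mutant cells with Cldn4, in Ptprc 0 and in strict cells. Il1b was called lower in Ptprc 0 cells, and Il1rn and Irak3 were called higher in strict cells but not in Ptprc 0 cells by the same test. Il1rn and Irak3 could pass the filter on low counts in strict cells through the Cldn4-positive class, so these strict-cell calls are a description. There were 144 and 430 Cldn4-positive Ptprc 0 cells in the RFP replicates at 4 days and 1421 and 1385 at 2 weeks. Of 12904 genes tested (edgeR, library as a block), 28.2% were called, 14.2% higher and 14.1% lower. Of 9 members tested, 3 were called lower and 0 higher, with a median of −0.50 against −0.03 over all genes, and Il1r2 did not pass the filter. Cldn4-positive cells had more UMIs, with medians of 7149.5, 6277, 20631 and 14211 against 4695, 4924, 14203 and 12657, and a deeper cell is more likely to show its Cldn4 UMI. CPM are scaled to the UMIs of each class, and the part of depth was not tested.

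Il33 fell in Cldn4-positive cells of all 4 libraries, with 79.2 against 209.9 CPM in replicate 1 and 68.9 against 343.6 in replicate 2 at 4 days, and 307.6 against 660.2 in replicate 1 and 183.6 against 414.0 in replicate 2 at 2 weeks. The log2 difference was −1.58 (SE 0.225, adjusted p = 0.00263, edgeR). Il33 was also lower in the Cldn4-positive Ptprc 0 cells of every wildtype library, such as Confetti RFP (84.2 against 358.7) and YFP replicate 1 at 2 weeks (280.8 against 1006.0). Those libraries held 14 to 66 such cells and were not tested. In strict cells YFP replicate 1 at 4 days ran the other way (328.3 against 313.7). Myd88 was called lower at −0.78 (SE 0.219, adjusted p = 0.0342, edgeR), at 29.3 against 25.8 and 15.2 against 38.9 at 4 days, and 27.2 against 43.6 and 17.6 against 30.2 at 2 weeks. Replicate 1 at 4 days ran the other way, and the call was lost without either library at 2 weeks (adjusted p = 0.117 without replicate 1 and 0.127 without replicate 2). Il1b was called lower at −3.86 (SE 0.663, adjusted p = 0.00523, edgeR), at 1.58 against 0.539 and 0.331 against 96.0 at 4 days, and 0.13 against 2.76 and 4.14 against 28.3 at 2 weeks. Replicate 1 at 4 days ran the other way. In replicate 2, 2 of 583 Il1b UMIs at 4 days and 26 of 600 at 2 weeks lay in strict cells, where the gene did not pass the filter, so the call rests on cells with UMIs of other lineage markers.

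Il1rn, the antagonist, was 1.77 higher on the log2 scale in Cldn4-positive Ptprc 0 cells (SE 0.659, adjusted p = 0.0825, edgeR), which is not a call. A fit of strict cells, which called 32.2% of 12406 genes, called it higher at 3.98 (SE 0.448, adjusted p = 0.000572, edgeR). The strict cells with and without Cldn4 held 3 and 0 Il1rn UMIs in replicate 1 and 73 and 4 in replicate 2 at 4 days, and 185 and 18 in replicate 1 and 11 and 2 in replicate 2 at 2 weeks. In CPM these were 2.61 against 0, 25.5 against 0.768, 6.44 against 0.495 and 0.588 against 0.126, higher in 4 of 4 libraries. Wildtype strict cells at 2 weeks had the same order, with 12 Il1rn UMIs against 1 (17.6 against 0.0414 CPM) in YFP replicate 1 and 1 against 0 in YFP replicate 2. At 4 days they held 0 against 0 in YFP replicate 1 and 0 against 1 in replicate 2. The YFP libraries were not tested. Irak3 had a log2 difference of 1.23 in Ptprc 0 cells (SE 0.49, adjusted p = 0.101, edgeR), not called, and of 1.66 in strict cells (SE 0.497, adjusted p = 0.0351, edgeR), called higher. Its strict-cell level at 2 weeks was 1.88 against 0.275 in replicate 1 and 3.05 against 1.64 in replicate 2, and at 4 days it rested on 1 UMI against 0 and 1 against 1. Both genes had their strict-cell counts mainly in the Cldn4-positive class and could pass the filter through it, so their strict-cell calls are given as a description.

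Il1a did not pass the test in Ptprc 0 cells (log2 difference 1.57, SE 0.933, adjusted p = 0.244, edgeR) and was not tested in strict cells for lack of counts. Of its strict-cell UMIs in the RFP libraries at 2 weeks, however, 85 of 90 in replicate 1 and 34 of 34 in replicate 2 lay in Cldn4-positive cells. Few cells carried them: among Cldn4-positive Ptprc 0 cells, 38 of 1421 in replicate 1 and 11 of 1385 in replicate 2 held an Il1a UMI. The Ptprc 0 cells with and without Cldn4 held 30718354 and 39163598 UMIs of all genes in replicate 1, and 21000994 and 18106672 in replicate 2. Il1r1 was not called in the Cldn4 comparison, with a log2 difference of 0.25 (SE 0.223, adjusted p = 0.438, edgeR), at 14.3 against 18.5 and 8.61 against 9.56 at 4 days, and 13.3 against 9.27 and 15.2 against 8.45 at 2 weeks. The order therefore differed between the times, a difference that was not tested. Il18 was at −1.08 (SE 0.553, adjusted p = 0.182, edgeR) and Il1rap at −0.50 (SE 0.256, adjusted p = 0.179), neither called.

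**Figure D4:**
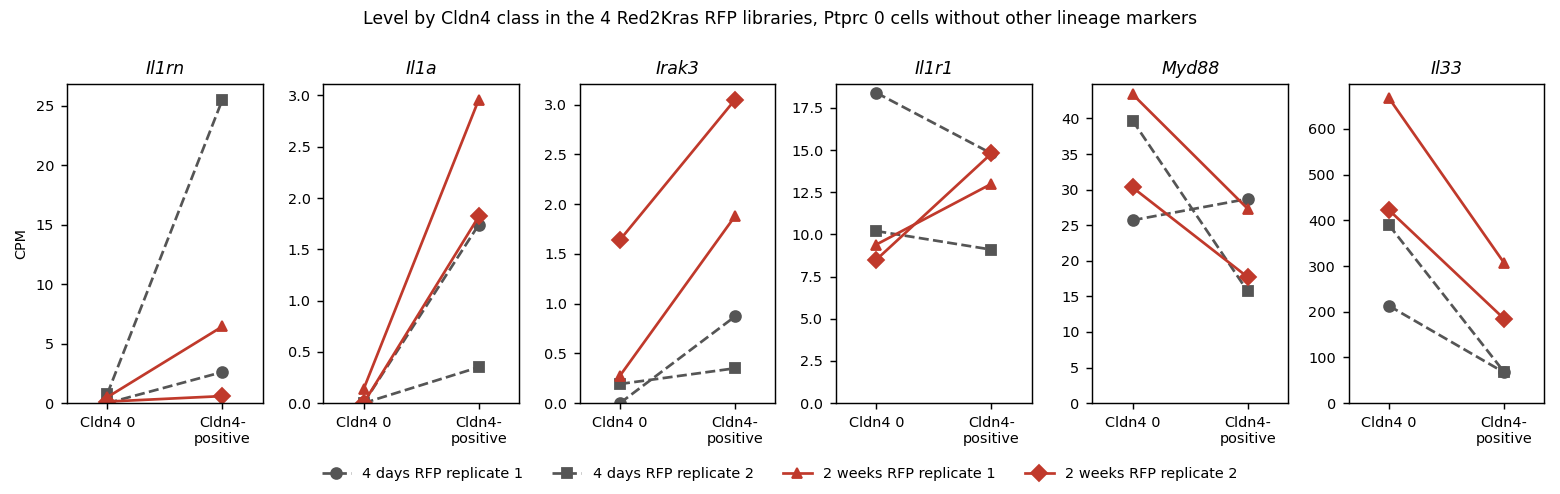
Level (CPM, vertical axis) of Il1rn, Il1a, Irak3, Il1r1, Myd88 and Il33 in strict cells without and with a Cldn4 UMI (horizontal axis), with a line joining both classes of each of the 4 RFP libraries. Il1rn, Il1a and Irak3, which have few UMIs, are higher in the Cldn4-positive class of all 4 libraries and Il33 is lower in all 4.

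The rest of the pathway was read from 5 lists of 48 genes. Between cell classes, all 6 tested of the 7 processing genes were called higher in Ptprc-positive cells. These genes build the inflammasome and cleave the IL-1β and IL-18 precursors, and the largest differences were Nlrp3 (log2 7.0, SE 0.583, adjusted p = 2.67e-07), Aim2 (6.20), Casp1 (5.87) and Casp4 (3.82). Nlrp3, Aim2, Casp1 and Casp4, at means of 0.584, 0.638, 0.681 and 1.21 CPM in Ptprc 0 cells, could pass the filter on low counts through Ptprc-positive cells. Their calls are therefore a description. Of all genes, 28.2% were higher and 31.3% lower in this comparison. In signal transduction 9 of 17 were called higher and 0 lower, with Ikbkb at 2.60, the feedback inhibitor Tnfaip3 at 2.44, Irak4 at 1.61 and Nfkb1 at 1.34. The other receptors gave 1 higher of 5 tested, the IL-36 receptor Il1rl2 at 3.36, and 2 lower, the IL-18 receptor chain Il18r1 at −2.62 and the inhibitory receptor Sigirr at −2.01. Il1rl2, at a mean of 1.46 CPM in Ptprc 0 cells (0.248 to 4.09), could also pass the filter through Ptprc-positive cells, so its call is a description. Il18r1 was thus mainly epithelial, at 68.2 ± 15.2 CPM in Ptprc 0 and 15 ± 10.8 in Ptprc-positive cells (n = 10 libraries). None of the 5 other ligands, the IL-36 genes and Il1f10, had enough counts to test.

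Known target genes of IL-1 signalling were called in both directions. Of 11 tested between classes, where 59.5% of all genes were called, 1 was called higher in Ptprc-positive cells, the chemokine Cxcl2 (4.50), and 4 lower, among them the growth factor Csf2 (−3.49), the siderophore-binding Lcn2 (−3.19) and the adhesion molecule Icam1 (−1.62). In the Cldn4 comparison, where 14.2% of all genes were called higher and 14.1% lower, 3 of 11 targets tested were called higher, the chemokine Cxcl5 (2.11, SE 0.188, adjusted p = 0.00047, edgeR), Csf2 (1.90) and the prostaglandin synthase Ptgs2 (1.78), and 3 lower, led by the acute-phase gene Saa3 (−2.82). Of the signal transduction list, Tnfaip3 was called higher (0.69), of the receptors Il18rap was called higher (0.80) and Il18bp (−1.32) and Sigirr (−0.42) lower, and 0 of 3 tested processing genes were called. No gene of the 5 lists was called in the comparisons between groups of libraries.

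Among 7253 genes at a mean of at least 10 CPM in Ptprc 0 cells, those whose level followed a member most closely over the 10 libraries were Clip4 (Pearson r = 0.97), Itga7 (0.965) and Ppp1r3c (0.948) for Il33, and Rsbn1l (0.977), Fcho2 (0.972) and Bet1l (0.960) for Il1r1. Myd88 was followed by Ppp1r3c (0.949), Alg14 (0.940) and Hmgcs1 (0.937). For Il1b they were the leukocyte genes Cd52 (0.912), Ctss (0.899) and C1qa (0.898). These are descriptions over 10 libraries that share groups, depth and make-up.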

How the data were processed

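Single-cell 3′ RNA libraries of sorted RFP+ or YFP+ lung epithelial cells were analysed from the raw UMI counts per gene and barcode that the authors deposited. The authors made them with Cell Ranger against GRCm38, version 3.1.0 in the submitters' processing notes and 5.0.1 in the matrix headers, and the chemistry version also differs between labels and methods. No doublet removal is stated, and no columns were left unused (0). Cells with at least 1000 genes, at most 50000 UMIs and at most 15% mitochondrial UMIs were kept. UMIs were summed per library and cell class (mitochondrial genes left out) and tested with edgeR 4.0.16 in R 4.3.3 (TMM, filterByExpr, quasi-likelihood test), with Benjamini-Hochberg adjustment over all genes tested and a threshold of 0.05. One fit over 10 libraries with 6 group coefficients gave the comparisons within a time and with Confetti. The fit over both times used the 8 Red2Kras libraries. SE is the absolute log2 difference divided by the square root of F. DESeq2 1.42.0 was an alternative. The scripts were tested on counts simulated with known 2-fold and 4-fold changes. RFP at 2 weeks against Confetti recovered 0% and 21% of these, and RFP against YFP over both times 13% and 70%. The comparison of cell classes recovered 54% and 92%. A gene not called between groups of libraries can therefore still differ.

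The precision is limited by 2 libraries per group and by 3251 to 15685 median UMIs per Ptprc 0 cell. Libraries are pools of lungs, and p-values measure the spread between such pools. Confetti libraries count as 1 replicate per colour. Same-numbered Red2Kras libraries deviated together from their group means (correlations of 0.109 to 0.668 over 7244 genes), so replicate numbers were taken to pair the samples, and a fit with a replicate block was run. The correlation was 0.492 between colours at 4 days and 0.497 between RFP at 4 days and YFP at 2 weeks, which are different times. Replicate number also divided the Red2Kras libraries by Xist UMIs. What same-numbered libraries share was not tested. Shares of cells with a UMI were compared after thinning each cell to 2000 UMIs, which left out 0 to 19 shallower cells per library and class. All 10 members were tested where they passed the filter on low counts, and a member without a value in a comparison was not called there. Of the pathway lists up to 4 called genes per list and comparison were named, largest difference first, and likeness used log2(CPM + 1). The members and lists were chosen with earlier results of these data known. Positions come from GENCODE M21 and promoters from RefSeq (GRCm38.p6). Protein sequences were not used here.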

Additional observations from a re-analysis of the deposited data

Results flagged for a closer look

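In 9 of 40 groups of 4 Red2Kras libraries of 1 colour, 1 library stood apart from the other 3 by a gap past Dixon's 95% limit. About 2 such cases are expected by chance. The Ptprc-positive cells of replicate 2 at 2 weeks gave 3 of them, with Il18 at 891.9 CPM in RFP (71.0 to 156.1 in the other RFP libraries) and 732.7 in YFP (137.5 to 169.8), and Il1b low at 346.7 in YFP (938.5 to 1024.1). Replicate 1 at 2 weeks gave 2, with Il33 in Ptprc-positive cells at 184.0 in RFP (4.74 to 23.2) and 196.6 in YFP (12.3 to 40.6). The ratio of the Ptprc-positive to the Ptprc 0 level was 0.364 for Il33 and 0.374 for the AT2 gene Sftpc in the former, and 0.20 and 0.159 in the latter, so Il33 was not read as expression in these cells. In Ptprc 0 cells of YFP replicate 2 at 2 weeks, Il18 stood at 47.9 (0.985 to 2.46) and Il1a at 3.26 (0.179 to 0.686). Il1r2 stood at 2.75 in Ptprc 0 cells of RFP replicate 2 at 4 days (0.10 to 0.252). Irak3 stood at 27.7 in Ptprc-positive cells of YFP replicate 1 at 4 days (11.2 to 12.5), the library with the highest summed neutrophil markers, at 33917 CPM. In strict cells of YFP replicate 2 at 2 weeks Il1a was at 0 and Il18 at 3.61, and in those of RFP replicate 2 at 4 days Il1r2 was at 0.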

How the results depend on the processing

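The number of members called went from 0 to 1 or more, or moved by over 1.5 times, in these cases. DESeq2 called 1 member, Il18, in RFP against YFP at 2 weeks, with 324 of 14856 genes called. It also called Il18 in YFP at 2 weeks against Confetti (49 of 14856 genes) and Il33 in RFP against YFP over both times (703 of 13078). Without the filter on low counts 1 member, Il18, was called in RFP against YFP at 2 weeks (319 of 21599 genes called). It was also called in YFP at 2 weeks against Confetti (118 of 21599) and against 4 days (29 of 21599). The same setting called 3 members in Ptprc-positive cells at 2 weeks against 4 days, with 276 of 17387 genes called. Strict cells called 1, Il1a, in RFP at 2 weeks against Confetti, with 767 of 13820 genes called. Il1a passed the filter there through RFP at 2 weeks alone, so this call is a description. With all cells of the library, Ptprc-positive cells included, the Cldn4 comparison called 6 members, with 2854 of 13268 genes called. Il1a (-1.44), Il1rn (-0.54) and Irak3 (-0.04) changed sign there. All deposited barcodes called 4 members in the Cldn4 comparison (Il1b, Il1r2, Il33 and Myd88), 1 more than the 3 reported. With them 3803 of 13039 genes were called. Il1rn was called in that comparison with DESeq2, without the filter, with at least 2 Cldn4 UMIs and in strict cells, and Irak3 in strict cells. These settings called 3866 of 12904, 4421 of 20636, 4188 of 12658 and 3994 of 12406 genes, in that order. The strict-cell calls of both genes are a description, as given in the report.

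Leaving out 1 library at a time turned the sign of Il1r1 in the Cldn4 comparison (-0.02 to 0.42), Il1rn in RFP against YFP at 4 days (-2.69 to 3.90) and in RFP at 4 days against Confetti (-1.44 to 4.92), Il18 in RFP against YFP at 2 weeks (-4.12 to 0.33) and Il1b in Ptprc-positive cells (-0.72 to 0.02). Il33 over both times ran from -0.73 to -1.39. In the Cldn4 comparison Il1a was called without RFP replicate 2 at 4 days (adjusted p = 0.0362) and Il1rn without RFP replicate 2 at 2 weeks (0.0305). Those fits called 3914 of 13040 and 1809 of 12382 genes, in that order. A replicate block changed no call of a member, with Il33 at -1.16 (adjusted p = 0.147, edgeR) and Myd88 at -0.64 over both times. After thinning to 1000 UMIs the mean share of Ptprc-positive cells was 4.63% for Il1a, 9.18% for Il1rn, 2.00% for Il1rap and 4.79% for Myd88, and of Ptprc 0 cells 1.37% for Il1r1, 0.262% for Il1rap and 3.45% for Myd88. Of the log2 differences recomputed, 194 of 216 under the other alternatives and 312 of 321 with 1 library left out kept their direction and side of the threshold, and Myd88 lost its call in the cases given in the report. Where a cause is not part of an alternative's construction, it was not tested.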
